A study of Homo sapiens with 18 samples.

Results

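THP-1 is a human monocytic leukaemia line. In its empty-vector cells, 90 genes without a single read in untreated libraries carried reads in each of the 3 libraries given Adavivint. They were chosen from the 18670 genes of a read count table by their values in cells with an empty vector: 0 counts in each of the 3 untreated libraries, and at least 1 CPM (the count divided by the library's total and multiplied by 1000000) in each of the 3 libraries with Adavivint. A symbol with a hyphen was left out, which removed 1 gene, the readthrough locus ZFP91-CNTF. Of the 90 genes, 78 had a symbol and 12 had only an Ensembl identifier. The untreated empty-vector cells had 1880 such silent genes in all, so the 90 are 4.79% of them. This share is set by the rule and nothing is read from it.

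The study sequenced RNA of 6 groups of 3 libraries. The groups were THP-1 cells with a lentiviral empty vector given Adavivint at 1 µM for 36 hours, the same empty-vector cells untreated, THP-1 cells overexpressing S100A9 from a lentivirus with the same Adavivint treatment, the overexpressing cells untreated, U937 cells with a lentiviral S100A9 knockdown (shS100A9), and U937 cells with an empty vector. U937 is a second human monocytic leukaemia line. All groups, controls included, carried a lentiviral vector and were selected with puromycin at 2 µg/mL for 24 hours or more from hour 48 after transduction. The labels name no vehicle for the untreated cells, no knockdown sequence and no separate cultures behind the replicates, so p-values measure only the spread between these libraries.

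The libraries held 38433169 to 84409062 counts. Over a group, 3 counts corresponded to 0.0147 to 0.0242 CPM, which is the floor used for genes at 0. S100A9 was 29.93, 28.95 and 26.62 CPM in overexpressing cells, against 9.16, 3.90 and 6.13 CPM in empty-vector cells, both untreated. With Adavivint S100A9 was 100.1, 108.0 and 102.3 CPM in overexpressing cells and 15.11, 14.18 and 12.82 CPM in empty-vector cells. Overexpressing cells with and without the drug therefore also differ in S100A9. It was 0.211, 0.398 and 0.0610 CPM in U937 shS100A9 cells, against 6.71, 4.68 and 6.91 CPM in U937 empty-vector cells. All 13 genes of a monocyte list were detected in THP-1 cells, with summed levels of 1498 to 1672 CPM in empty-vector cells with the drug, against 1172 to 1251 CPM untreated. Its members differed in direction. LYZ averaged 684 CPM with the drug and 332.5 CPM untreated, PTPRC 469 and 357 CPM, and CD14 21.1 and 0.369 CPM, while CD33 was at 22.2 and 84.7 CPM, ITGAM at 7.81 and 27.9 CPM, FCGR1A at 5.72 and 19.9 CPM, CD68 at 21.1 and 32.6 CPM and CD163 at 0.179 and 0.243 CPM. Replicates differed more than counting error allows (chi-square per degree of freedom 7.18 to 225 over pairs of libraries), and in U937 cells library 2 with the empty vector and library 3 with shS100A9 were unlike their replicates.

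Adavivint, also called lorecivivint, is a small-molecule inhibitor of CLK2 and DYRK1A, kinases that phosphorylate splicing factors and other nuclear proteins, and it was developed as a modulator of Wnt signalling in osteoarthritis. Most genes that serve a single tissue are kept silent elsewhere: their promoters lack the factors that would start transcription, and their chromatin is closed. A count at a gene does not say where its RNA began. Reads can come from the gene's own start or from a transcript that began at a gene upstream on the same strand and ran on past its end, and gene counts cannot tell the 2 apart.

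The promoters of the genes are shown first, since they hold the sequence at which transcription of each gene would normally begin. RefSeq (GRCh38.p14) gave a promoter for 58 of the 90 genes, 250 bases before to 50 bases after the start. The 100 bases before the start are printed for the 6 genes with the highest minimum CPM under the drug and for 3 genes that hold a TATA box, each 5′ to 3′ on the gene's strand. Capitals mark TATAAA (the TATA box), the GC box GGGCGG, the CCAAT box and the motif CACGTG, each on either strand. The windows lie at chr19:17871845-17871944 on the plus strand for SLC5A5, chr15:32717904-32718003 plus for GREM1, chr12:100356974-100357073 plus for SLC17A8, chr10:118595649-118595748 minus for PRLHR, chr14:91947695-91947794 minus for FBLN5 and chr2:121285203-121285302 minus for TFCP2L1. Those of the TATA-box genes lie at chr15:65076668-65076767 minus for RASL12, chr2:162152248-162152347 minus for GCG and chr15:34795550-34795649 minus for ACTC1.
SLC5A5: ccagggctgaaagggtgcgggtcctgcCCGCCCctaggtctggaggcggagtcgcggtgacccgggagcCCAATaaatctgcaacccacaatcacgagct
GREM1: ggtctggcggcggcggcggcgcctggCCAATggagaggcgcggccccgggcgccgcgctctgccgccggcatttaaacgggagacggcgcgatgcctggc
SLC17A8: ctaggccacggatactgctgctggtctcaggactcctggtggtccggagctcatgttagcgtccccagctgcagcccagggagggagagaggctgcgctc
PRLHR: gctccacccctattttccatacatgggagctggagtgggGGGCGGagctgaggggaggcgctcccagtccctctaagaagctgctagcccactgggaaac
FBLN5: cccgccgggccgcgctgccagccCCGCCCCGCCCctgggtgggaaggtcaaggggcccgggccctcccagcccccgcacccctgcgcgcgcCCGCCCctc
TFCP2L1: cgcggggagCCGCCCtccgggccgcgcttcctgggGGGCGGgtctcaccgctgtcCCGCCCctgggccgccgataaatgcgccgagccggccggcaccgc
RASL12: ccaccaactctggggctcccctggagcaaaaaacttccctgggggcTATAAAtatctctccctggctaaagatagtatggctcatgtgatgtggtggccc
GCG: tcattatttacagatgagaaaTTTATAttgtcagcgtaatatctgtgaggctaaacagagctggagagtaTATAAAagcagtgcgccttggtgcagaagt
ACTC1: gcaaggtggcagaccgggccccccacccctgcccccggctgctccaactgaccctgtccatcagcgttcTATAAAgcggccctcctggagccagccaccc

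Over the whole 300-base windows, the 58 promoters were poor in CpG, like those of the other silent genes. Their median ratio of observed to expected CpG was 0.325, against 0.334 over 1244 other silent genes and 0.785 over 14209 genes of the table. The ratio exceeded 0.6 in 17 of the 58 (29.3%), against 31.3% of other silent genes and 69.7% of all genes. TATAAA was found on either strand in 13 of the 58 (22.4%), against 17.8% of other silent genes and 8.34% of all genes. GGGCGG was found in 37.9%, 34.7% and 61.7%, and CCAAT in 43.1%, 37.7% and 36.2% of the same 3 sets. CACGTG was present in 6.90% of the 58, against 6.03% of other silent and 9.16% of all genes. TGANTCA was present in 5.17%, against 8.76% and 5.42%, and TGACGTCA in none of the 58, against 1.53% and 2.79%. None of the motifs was much more frequent in the 58 than in the other silent promoters. A match is only a description of letters.

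In empty-vector cells with Adavivint, the 90 genes had mean levels of 1.14 to 29.5 CPM, with a median of 3.01 CPM. Together they held 361, 382 and 493 CPM in the 3 drug-treated libraries, against 0 in each untreated library. Against a floor of 3 counts over the untreated group, the fold was 61.2 or more for each gene, with a median of 162 and a highest of 1588. These values chose the genes and are given as a description, with no test. In RNA of whole cultures, more cells expressing a gene and more RNA per cell cannot be told apart. Just inside the threshold lay TRIM40, with a lowest library of 1.03 CPM, ENSG00000289685 (1.05 CPM), RD3 (1.06 CPM) and ENSG00000287725 (1.08 CPM). Just outside lay CATSPERD (0.995 CPM), MGP (0.990 CPM), GAL3ST1 (0.980 CPM) and ENSG00000284776 (0.980 CPM).

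**Figure D1:**
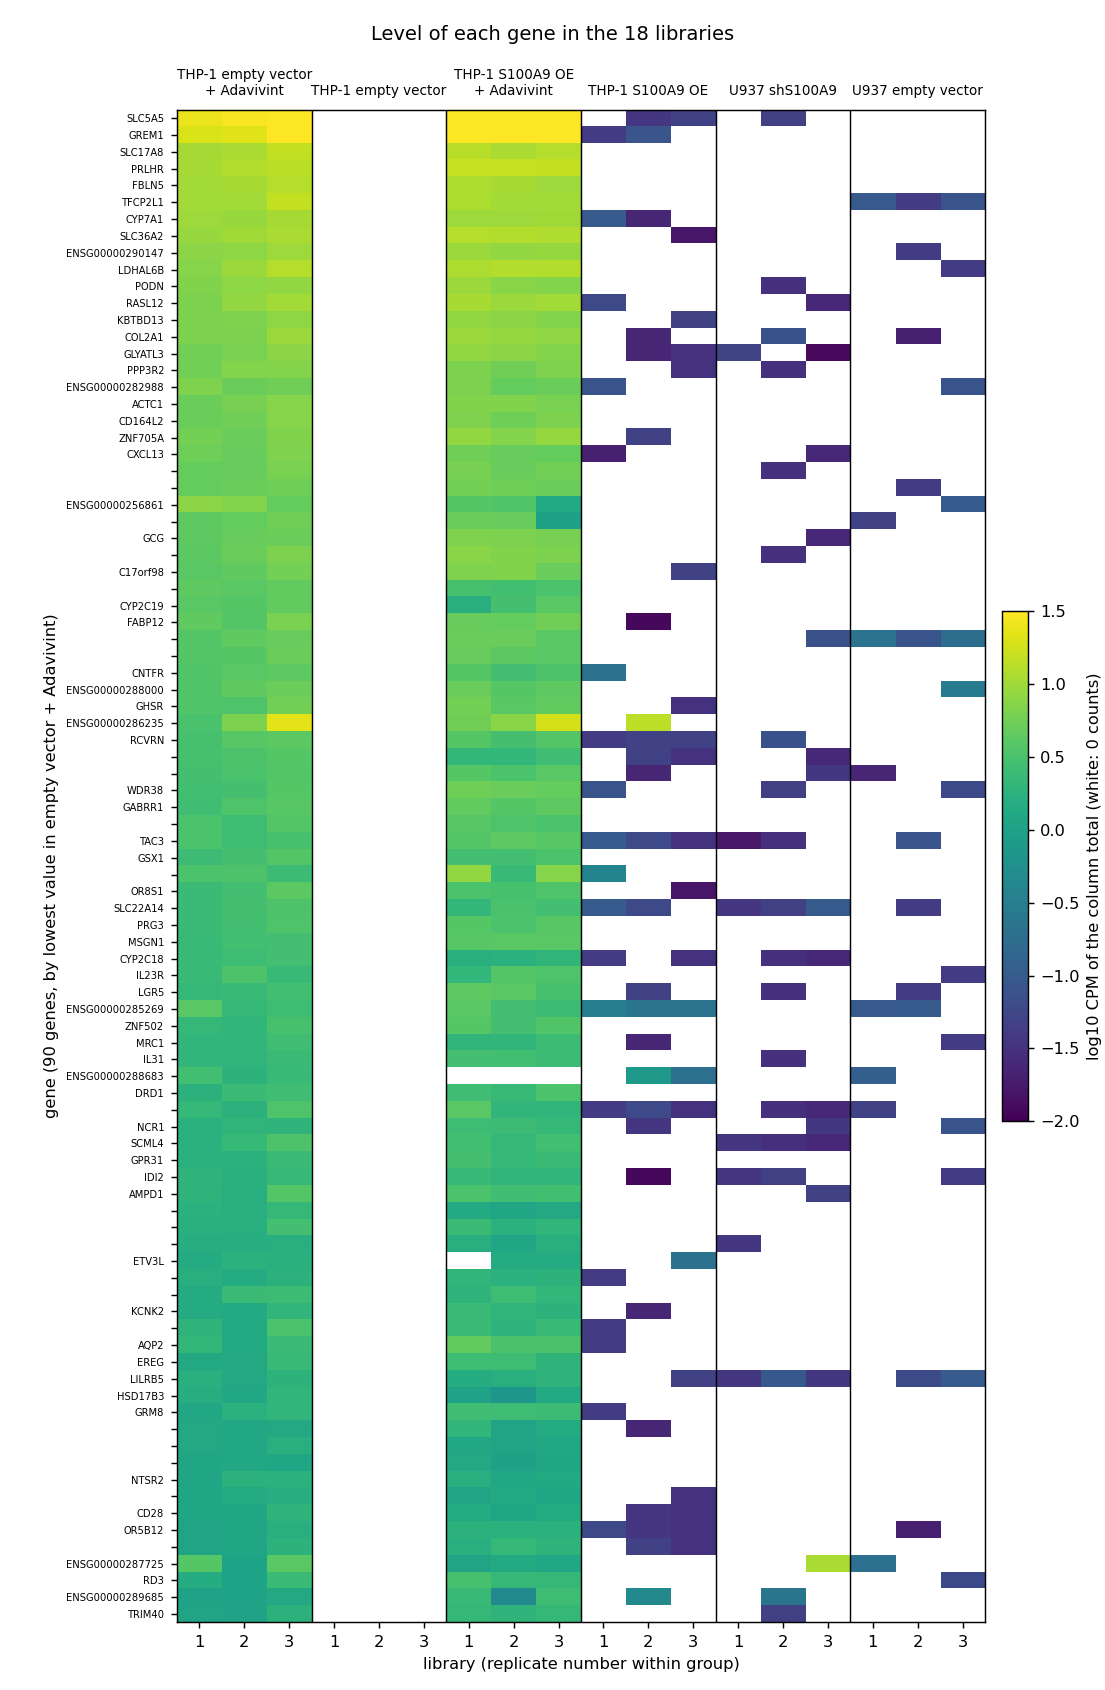
Level of each of the 90 genes (rows, labelled for most genes the text names) in the 18 libraries (columns, 3 per group), as log10 CPM; white cells hold 0 counts. Both Adavivint groups are filled, apart from ENSG00000288683 in all overexpressing libraries with the drug and ETV3L in library 1 of that group. The untreated empty-vector columns are empty by the rule. The untreated overexpressing and U937 columns hold scattered low values apart from ENSG00000286235 and ENSG00000287725 in 1 library each.

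The S100A9-overexpressing libraries took no part in the choice, and the same genes were high with the drug there. In overexpressing cells with Adavivint, 86 of the 90 genes (95.6%) had at least 1 CPM in each of the 3 libraries. Of the 1790 other genes silent in untreated empty-vector cells, 12 did (0.670%). The rule had left these 1790 out for falling under 1 CPM with the drug in empty-vector cells, so a low share is partly built in. Together the 90 genes held 473, 429 and 447 CPM in overexpressing cells with the drug, against 1.82, 16.2 and 1.25 CPM in untreated overexpressing cells. The untreated library at 16.2 CPM owed 1179 of its 1371 counts to a single unnamed gene, ENSG00000286235.

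For 87 of the 90 genes (96.7%), every overexpressing library with the drug lay above every untreated overexpressing library. Among all genes of the table this held for 38.2%, and among the 1790 other silent genes for 456 (25.5%). The latter set was left out by the rule for its lower levels with the drug. The exceptions were ETV3L, a relative of the ETS repressor ETV3, with 0, 57 and 64 counts with the drug against 0, 0 and 13 untreated, and the unnamed genes ENSG00000286235 and ENSG00000288683. ENSG00000286235 had 213, 305 and 850 counts with the drug against 0, 1179 and 0 untreated. ENSG00000288683 ran the other way, with 0, 0 and 0 counts with the drug against 0, 66 and 12 untreated, although it had 114, 82 and 105 counts in empty-vector cells with the drug.

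The drug effect was tested across all genes with edgeR's quasi-likelihood test on the 6 overexpressing libraries, with Benjamini-Hochberg adjustment. Of 15009 genes tested, 6664 were higher with the drug (44.4%) and 6377 lower (42.5%) at an adjusted p below 0.05. Of the 90 genes, 88 passed the filter on low counts, 87 of these were higher and none was lower. Most passed only through the libraries in which they were high, as did the other silent genes. Of these other silent genes, 183 of 184 tested (99.5%) were higher, so the count of 87 says nothing particular of the 90. The adjusted p-values given below for single genes near 0 untreated carry the same limit. ENSG00000286235 was the gene not called (log2 fold change 1.20 ± 1.26 SE, edgeR adjusted p = 0.387), and it was called when untreated overexpressing library 2 was left out (log2 fold change 12.01, adjusted p = 1.25e-05).

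**Figure D2:**
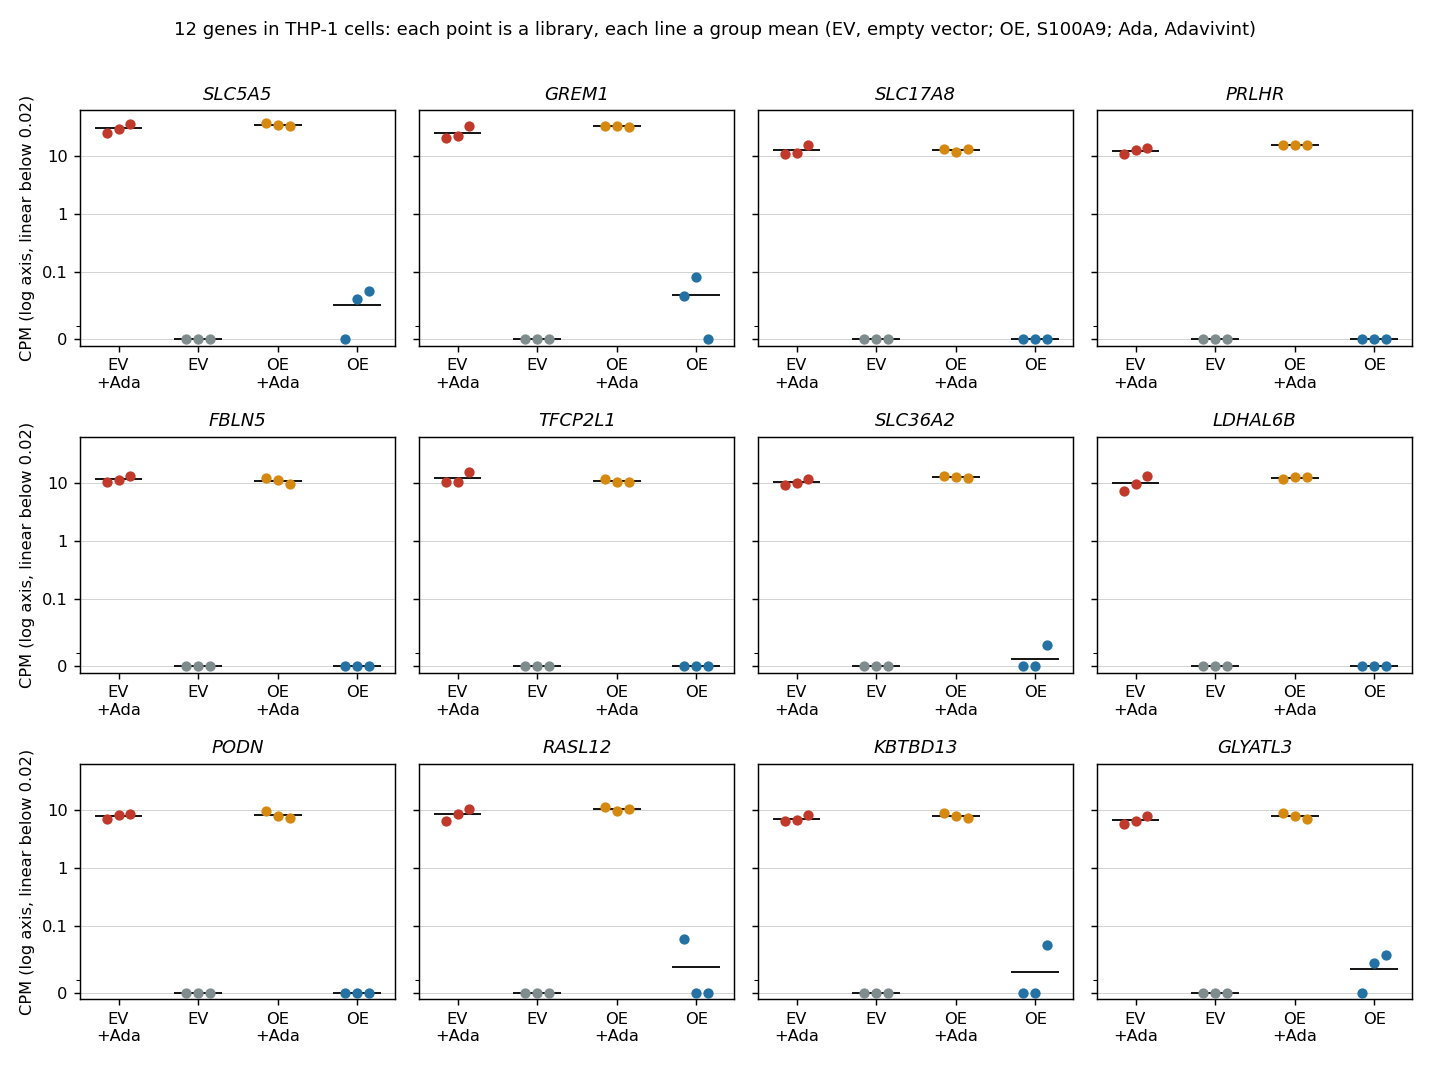
CPM of 12 of the genes in each THP-1 library (points, 3 per group; lines, group means; log axis, linear below 0.02 CPM). The 6 drug-treated libraries of each gene lie above 5 CPM and the 6 untreated libraries below 0.1 CPM.

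Of the genes by role, transporters come first. SLC5A5, the sodium-iodide symporter of the thyroid, lies at chr19:17871973-17895174 on the plus strand (GENCODE 29, GRCh38). It had 24.6, 28.8 and 35.0 CPM in empty-vector cells with the drug, against 0 untreated, and 36.2, 33.5 and 32.0 CPM in overexpressing cells with the drug, against 0, 0.0355 and 0.0481 CPM untreated. With the empty vector this gap is set by the rule, and in overexpressing cells the drug-treated libraries also stood far above the untreated ones. In overexpressing cells the ratio of summed levels was 1108 (95% counting interval 508.8 to 3022; edgeR log2 fold change 10.09 ± 0.20 SE, adjusted p = 5.60e-11). This p-value carries the limit given above for genes near 0 untreated. Divided by exon length, SLC5A5 reached 8.07 CPM per kb in empty-vector cells with the drug, and FABP12, a fatty acid binding protein, and C17orf98 were near it at 7.80 and 7.51 CPM per kb.

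SLC17A8 encodes a vesicular glutamate transporter of neurons and inner hair cells. It had 10.8, 11.2 and 15.1 CPM in empty-vector cells with the drug and 13.2, 11.5 and 12.9 CPM in overexpressing cells with the drug, against 0 in all 6 untreated libraries. In overexpressing cells its level with the drug was 822-fold the floor of 3 counts over the untreated group. SLC36A2, a proton-coupled amino acid transporter of the kidney, had 378, 447 and 517 counts in empty-vector cells with the drug, and 492, 495 and 540 counts against 0, 0 and 1 in overexpressing cells with and without it. SLC22A14, of the organic ion transporter family, was low, with 103, 129 and 152 counts in empty-vector cells with the drug. In overexpressing cells SLC22A14 had 81, 126 and 128 counts with the drug against 5, 5 and 0 untreated (edgeR log2 fold change 5.74 ± 0.46 SE, adjusted p = 7.97e-07). These 4 are the genes found among 61 silent solute carriers, of 368 solute carriers in the table (6.56% of the silent ones, against 4.79% of all silent genes). The 4.79% is also the share for comparison with each later list of silent genes. Solute carriers at large were divided in overexpressing cells: of 293 tested, 124 were higher and 133 lower with the drug, against 44.4% and 42.5% of all genes tested, with a median log2 fold change of -0.10 against 0.03.

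Among channels, AQP2, the vasopressin-regulated water channel of the kidney collecting duct, had 87, 60 and 111 counts in empty-vector cells with the drug, and 174, 126 and 141 counts against 2, 0 and 0 in overexpressing cells with and without it. GABRR1, a rho subunit of GABA receptors best known from the retina, had 113, 152 and 174 counts in empty-vector cells with the drug. In overexpressing cells GABRR1 had 175, 154 and 196 counts with the drug and 0 in each untreated library. KCNK2, a mechanosensitive potassium channel, had 60, 62 and 91 counts in empty-vector cells with the drug and 93, 80 and 83 counts against 0, 2 and 0 in overexpressing cells with and without it. GABRR1 and KCNK2 were the genes found among 43 silent ion channel genes (4.65%).

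Receptors for peptides and transmitters formed another set. PRLHR, the receptor of prolactin-releasing peptide, had 10.6, 12.4 and 13.9 CPM in empty-vector cells with the drug and 15.5, 15.6 and 15.1 CPM in overexpressing cells with the drug, against 0 in all 6 untreated libraries. In overexpressing cells its level with the drug was 1007-fold the floor of 3 counts over the untreated group. GHSR, the ghrelin receptor, had 149, 153 and 261 counts in empty-vector cells with the drug, and 229, 160 and 207 against 0, 0 and 2 in overexpressing cells with and without it. DRD1, a dopamine receptor, had 75, 108 and 122 counts in empty-vector cells with the drug and 103, 94 and 147 in overexpressing cells with the drug, against 0 in all 6 untreated libraries. In overexpressing cells all were clear of their untreated libraries, and with the empty vector the rule made them so.

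GPR31, a receptor of fatty acid metabolites, had 71, 77 and 109 counts in empty-vector cells with the drug and 114, 88 and 109 in overexpressing cells with the drug, against 0 in all 6 untreated libraries. GRM8, a metabotropic glutamate receptor, had 52, 76 and 91 counts in empty-vector cells with the drug, and 102, 104 and 113 counts against 2, 0 and 0 in overexpressing cells with and without it. DRD1, GPR31 and GRM8 were the genes found among 47 silent members of a list of G protein-coupled receptors (6.38%), which did not hold PRLHR, GHSR or NTSR2, the neurotensin receptor at 49, 78 and 78 counts in empty-vector cells with the drug. LGR5, the R-spondin receptor that marks intestinal stem cells, had 90, 105 and 123 counts in empty-vector cells with the drug and 165, 161 and 137 counts against 0, 4 and 0 in overexpressing cells with and without it. CNTFR, the receptor of ciliary neurotrophic factor, had 150, 176 and 195 counts in empty-vector cells with the drug and 143, 115 and 152 counts against 10, 0 and 0 in overexpressing cells with and without it.

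Secreted factors were present too. GREM1, a secreted antagonist of bone morphogenetic proteins, lies at chr15:32717974-32745107 on the plus strand. It had 20.3, 21.7 and 32.1 CPM in empty-vector cells with the drug, against 0 untreated, and 32.2, 32.2 and 31.2 CPM in overexpressing cells with the drug, against 0.0400, 0.0829 and 0 CPM untreated. In overexpressing cells the ratio of summed levels was 696 (95% counting interval 366.2 to 1523; edgeR log2 fold change 9.45 ± 0.24 SE, adjusted p = 1.88e-10). GCG, the glucagon precursor of pancreatic alpha cells, had 178, 214 and 237 counts in empty-vector cells with the drug and 258, 258 and 278 in overexpressing cells with the drug, with 0 in all 6 untreated libraries. TAC3, the neurokinin B precursor, kept a trace without the drug: 141, 172 and 175 counts with it against 5, 5 and 2 untreated in overexpressing cells (edgeR log2 fold change 6.03 ± 0.27 SE, adjusted p = 8.89e-09). EREG, an epidermal growth factor receptor ligand, had 56, 57 and 107 counts in empty-vector cells with the drug and 101, 103 and 86 in overexpressing cells with the drug, with 0 in all 6 untreated libraries.

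Of 34 silent genes on a list of cytokines, chemokines and their receptors, 3 were among the 90 (8.82%). CXCL13, the B cell attractant, had 5.36, 4.93 and 6.63 CPM in empty-vector cells with the drug, and 215, 195 and 213 counts against 1, 0 and 0 in overexpressing cells with and without it. IL23R, the interleukin 23 receptor of T helper cells, had 97, 146 and 102 counts in empty-vector cells with the drug and 81, 147 and 156 in overexpressing cells with the drug, with 0 in all 6 untreated libraries. IL31, the itch cytokine of T cells, had 84, 87 and 111 counts in empty-vector cells with the drug and 110, 111 and 112 in overexpressing cells with the drug, with 0 in all 6 untreated libraries. The whole list had no common direction in overexpressing cells, with 37 of 81 tested genes higher and 30 lower with the drug, against 44.4% and 42.5% of all genes tested, and a median log2 fold change of 0.18 against 0.03.

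Matrix and muscle genes included FBLN5, an elastic fibre protein, with 10.4, 11.1 and 13.1 CPM in empty-vector cells with the drug and 11.9, 11.1 and 9.63 CPM in overexpressing cells with the drug, against 0 in all 6 untreated libraries. PODN, a small leucine-rich proteoglycan, had 286, 359 and 382 counts in empty-vector cells with the drug and 359, 307 and 326 in overexpressing cells with the drug, with 0 in all 6 untreated libraries. COL2A1, the fibrillar collagen of cartilage, had 6.41, 6.48 and 9.29 CPM in empty-vector cells with the drug, and 364, 359 and 371 counts against 0, 2 and 0 in overexpressing cells with and without it. It was the gene found among 12 silent matrix genes. ACTC1, cardiac alpha actin, had 216, 270 and 329 counts in empty-vector cells with the drug and 260, 278 and 280 in overexpressing cells with the drug, with 0 in all 6 untreated libraries. KBTBD13, a muscle adaptor of ubiquitin ligases, had 270, 292 and 359 counts in empty-vector cells with the drug, and 333, 308 and 323 counts against 0, 0 and 3 in overexpressing cells with and without it. These genes, too, were clear of their untreated libraries in overexpressing cells, as were 87 of the 90 genes and 38.2% of all genes. No keratin or junction gene of 28 silent ones, no cadherin of 15 and no cancer-testis gene of 43 was among the 90. Of all silent genes 4.79% were, so a count of 0 in lists of this size says little.

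Enzymes of liver and steroid metabolism were found as well. CYP7A1, the rate-limiting enzyme of bile acid synthesis, had 9.86, 9.57 and 10.1 CPM in overexpressing cells with the drug and 9.78, 9.07 and 10.8 CPM in empty-vector cells with the drug, with overlapping values. CYP2C19, a drug-metabolising cytochrome P450, had 63, 118 and 182 counts in overexpressing cells with the drug, against 166, 167 and 209 in empty-vector cells with the drug. The mean level of CYP2C19 was 2.87 ± 1.19 CPM with S100A9 and 4.12 ± 0.45 CPM with the empty vector (SD, n = 3 each). CYP2C18, its neighbour on chromosome 10, had a mean of 1.76 ± 0.18 CPM with S100A9 and 2.57 ± 0.29 CPM with the empty vector (SD, n = 3 each). The summed-level ratios were 0.711 for CYP2C19 and 0.686 for CYP2C18. These genes are close paralogs, so reads may be shared between them. HSD17B3, the testis enzyme that makes testosterone, had 40, 29 and 60 counts in overexpressing cells with the drug, against 64, 56 and 91 in empty-vector cells with the drug. No test is given, since the empty-vector libraries chose these genes.

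Further enzymes were LDHAL6B, a single-exon relative of lactate dehydrogenase known from testis, GLYATL3, an acyltransferase-like protein, and PPP3R2, a testis regulatory subunit of calcineurin. LDHAL6B had 305, 422 and 581 counts in empty-vector cells with the drug. In overexpressing cells with the drug it had 452, 499 and 569 counts, with 0 in all 6 untreated libraries. Its level in overexpressing cells with the drug was 805-fold the floor of 3 counts over the untreated group. GLYATL3 had 240, 280 and 349 counts in empty-vector cells with the drug, and 332, 310 and 318 counts against 0, 2 and 2 in overexpressing cells with and without it. PPP3R2 had 239, 314 and 321 counts in empty-vector cells with the drug, and 246, 222 and 298 counts against 0, 0 and 2 in overexpressing cells with and without it. The lowest drug-treated library of each stood above 200 counts and no untreated one above 2. LDHAL6B overlaps MYO1E on the opposite strand, and PPP3R2 overlaps GRIN3A on the same strand. Both of these partners had 1 CPM or more in untreated empty-vector cells. The strand setting of the counting is not given, so reads of LDHAL6B and PPP3R2 may be shared with them.

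The remaining genes of the 20 with the highest minimum CPM are CD164L2 and 2 unnamed identifiers. CD164L2, a relative of the sialomucin CD164, had 216, 248 and 326 counts in empty-vector cells with the drug and 258, 214 and 294 in overexpressing cells with the drug, with 0 in all 6 untreated libraries. ENSG00000290147 had 330, 360 and 443 counts in empty-vector cells with the drug and 358, 341 and 398 in overexpressing cells with the drug, with 0 in all 6 untreated libraries. ENSG00000282988 had 276, 232 and 246 counts in empty-vector cells with the drug, and 250, 189 and 226 counts against 4, 0 and 0 in overexpressing cells with and without it. It overlaps the histone genes H3C4 and H2AC7 on the same strand of chromosome 6, so its reads may be shared with them. None of the 3 overlapped its untreated libraries in overexpressing cells, which the rule did not use.

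Transcription factors were also among the 90. TFCP2L1, a factor of epithelial cells and naive pluripotent stem cells, had 10.5, 10.3 and 15.0 CPM in empty-vector cells with the drug and 11.6, 10.2 and 10.4 CPM in overexpressing cells with the drug, against 0 in all 6 untreated libraries. GSX1, a homeobox factor of the forebrain, had 106, 132 and 163 counts in empty-vector cells with the drug and was the gene found among 25 silent homeobox genes (4.00%). MSGN1, a factor of presomitic mesoderm, had 95, 123 and 128 counts in empty-vector cells with the drug and 152, 159 and 183 in overexpressing cells with the drug, with 0 in all 6 untreated libraries. ZNF705A, a zinc finger protein, had 243, 222 and 310 counts in empty-vector cells with the drug and 328, 289 and 397 counts against 0, 4 and 0 in overexpressing cells with and without it. Of 27 silent zinc finger genes, ZNF705A and ZNF502 were among the 90 (7.41%), and of 494 zinc finger genes tested in overexpressing cells 330 were higher and 96 lower with the drug, against 44.4% and 42.5% of all genes tested. Their median log2 fold change was 0.85, against 0.03 over all genes tested. Near-identical copies of ZNF705A exist, so its reads may be shared between them.

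Of immune receptors, NCR1, which activates natural killer cells, had 73, 86 and 86 counts in empty-vector cells with the drug and 99, 102 and 97 counts against 0, 3 and 0 in overexpressing cells with and without it. CD28, the T cell costimulatory receptor, had 48, 50 and 85 counts in empty-vector cells with the drug and 55, 47 and 64 counts against 0, 3 and 2 in overexpressing cells with and without it (edgeR log2 fold change 5.68 ± 0.42 SE, adjusted p = 4.43e-07). MRC1, the mannose receptor of macrophages, had 84, 90 and 120 counts in empty-vector cells with the drug and 74, 81 and 112 counts against 0, 2 and 0 in overexpressing cells with and without it. Cell type markers could enter the 90 only where they were silent in untreated empty-vector cells, which left few of each list. The 90 held 1 of 2 silent natural killer markers (NCR1, of 7 on the list) and 1 of 6 silent muscle markers (ACTC1, of 13). The 6 silent neuronal markers, the 3 silent ones each of the erythroid, epithelial and germ cell lists, and the 2 each of the megakaryocyte, T cell, B cell, fibroblast, endothelial and hepatocyte lists were not among the 90, and no mast cell marker was silent. Numbers this small say little of any list. The summed muscle list was at 140 to 168 CPM in empty-vector cells with the drug, against 49.6 to 58.0 CPM untreated, and the 5 of its 13 genes that were tested were all higher in overexpressing cells with the drug, against 44.4% of all genes tested. The other 8 did not pass the filter on low counts, which low genes could pass through the drug-treated libraries alone. The natural killer list was at 16.7 to 18.4 CPM, against 11.1 to 14.5 CPM. The part of such lists in the 90 was not tested. In all, 23 of the 90 were on any list and 67 on none.

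Sensory genes were found too. Of 129 silent olfactory receptors 2 were found (1.55%): OR8S1, with 103, 126 and 188 counts in empty-vector cells with the drug, and OR5B12, with 47, 51 and 72. In overexpressing cells with and without the drug, OR5B12 had 69, 68 and 77 counts against 3, 3 and 2 (edgeR log2 fold change 5.40 ± 0.29 SE, adjusted p = 3.54e-08). RCVRN, the photoreceptor calcium sensor recoverin, had 127, 171 and 187 counts in empty-vector cells with the drug and 145, 117 and 168 counts against 2, 4 and 3 in overexpressing cells with and without it (edgeR log2 fold change 6.25 ± 0.25 SE, adjusted p = 3.86e-09). The lowest fitted changes among called genes belonged to unnamed identifiers, ENSG00000289685 at 3.44 ± 0.93 SE (edgeR adjusted p = 0.00556) and ENSG00000285269 at 3.70 ± 0.26 SE (edgeR adjusted p = 2.37e-07).

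Silence without the drug was nearly but not exactly shared between the vectors. In untreated overexpressing cells 44 of the 90 genes had 0 counts in all 3 libraries, 22 had 1 to 3 counts over the group, 19 had 4 to 14 and 5 had more. The last 5 were all unnamed identifiers, with the most counts at ENSG00000286235 (1179), ENSG00000288683 (78), ENSG00000285269 (49) and ENSG00000289685 (37). Among named genes the most were 13 counts (ETV3L) and 12 (TAC3). No silent gene of the 1880 reached 1 CPM in each untreated overexpressing library. For the 44 genes at 0, the drug-treated level in overexpressing cells was 68.3-fold to 1007-fold the floor of 3 counts, with a median of 214-fold.

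Because of those traces, the same value rule applied to the overexpressing libraries gave 93 genes, of which 43 were shared: 47.8% of the 90 and 46.2% of the 93. The 93 are 4.97% of the 1872 genes silent in untreated overexpressing cells and 0.504% of all 18452 genes without a hyphen. Of the 47 genes not shared, 46 failed by holding a count in untreated overexpressing cells and 4 by a drug-treated library under 1 CPM, 3 of these by both. Of the 50 on the other side, 44 held counts in untreated empty-vector cells, with a median of 3.5 and at most 52, and 13 had an empty-vector library with the drug under 1 CPM. The difference between the lists was one of a few reads without the drug more than of level with it.

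With the drug, both vectors gave similar levels. The ratio of summed levels, overexpressing over empty vector, had a median of 1.07 over the 90 genes, against 0.954 over all genes at 1 CPM or more in each drug-treated empty-vector library. It lay within 2-fold for 86 of the 90 (95.6%), against 99.6% of all such genes. Across the 89 genes above 0 in both, Pearson's r of the log2 mean levels was 0.933 and Spearman's rho 0.922. This is a description across genes that share the same 6 libraries. Below a ratio of 0.5 were the unnamed ENSG00000256861 (144, 144 and 60 counts in overexpressing against 331, 312 and 211 in empty-vector cells, ratio 0.433), ENSG00000287725 (0.417) and ENSG00000288683 (0). Among named genes AQP2 had a ratio of 1.81 and WDR38, a WD-repeat protein, 1.57.

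**Figure D3:**
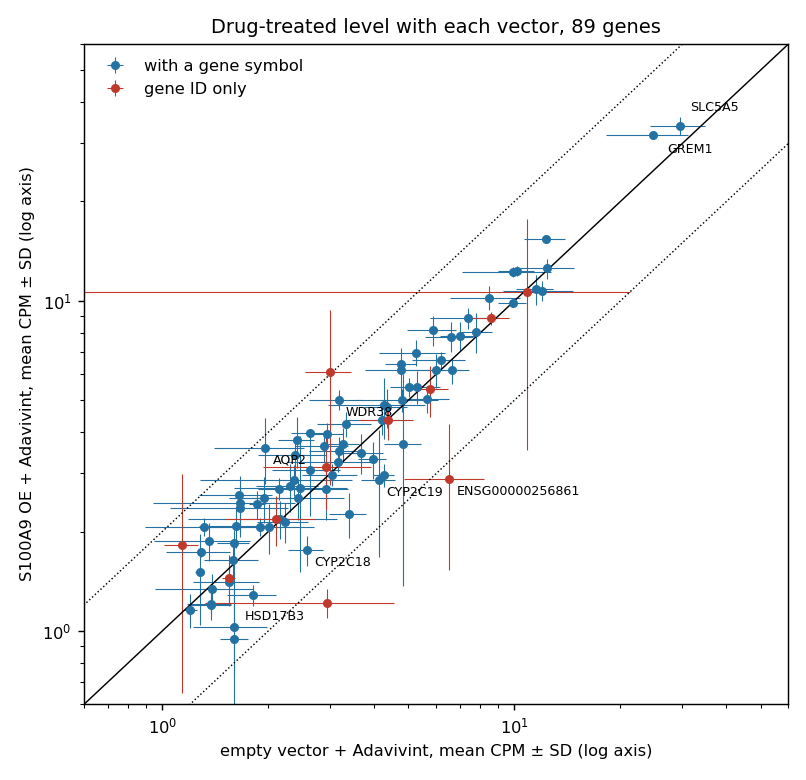
Mean CPM of 89 genes in overexpressing cells with Adavivint (vertical) against empty-vector cells with Adavivint (horizontal), log axes, bars ± SD over 3 libraries. The solid line marks equal levels and the dotted lines 2-fold; 1 gene at 0 in overexpressing cells with the drug is not drawn.

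One drug-treated library stood above its replicates for these genes. Empty vector with Adavivint 3 had the highest CPM of its group for 78 of the 90 (86.7%), against 34.9% of the 12683 genes at 1 CPM or more in each of the 3 libraries. The median ratio to the group mean was 1.17 in that library, 0.882 in library 1 and 0.929 in library 2. Other genes at least 2-fold higher with the drug in overexpressing cells leaned the same way, 61.7% of 2806 being highest in library 3, and genes at least 2-fold lower leaned the opposite way, with 14.8% of 2702. In overexpressing cells with the drug, library 1 was highest for 57 of the 90 (63.3%), against 36.5% of 12695 genes. The median coefficient of variation of the 90 was 17.4% in empty-vector cells with the drug, against 5.57% over all such genes, and 10.9% against 4.97% in overexpressing cells with the drug. Left out of the rule, library 3 gave 91 genes in place of 90. Whether these libraries differ in exposure to the drug was not tested.

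**Figure D4:**
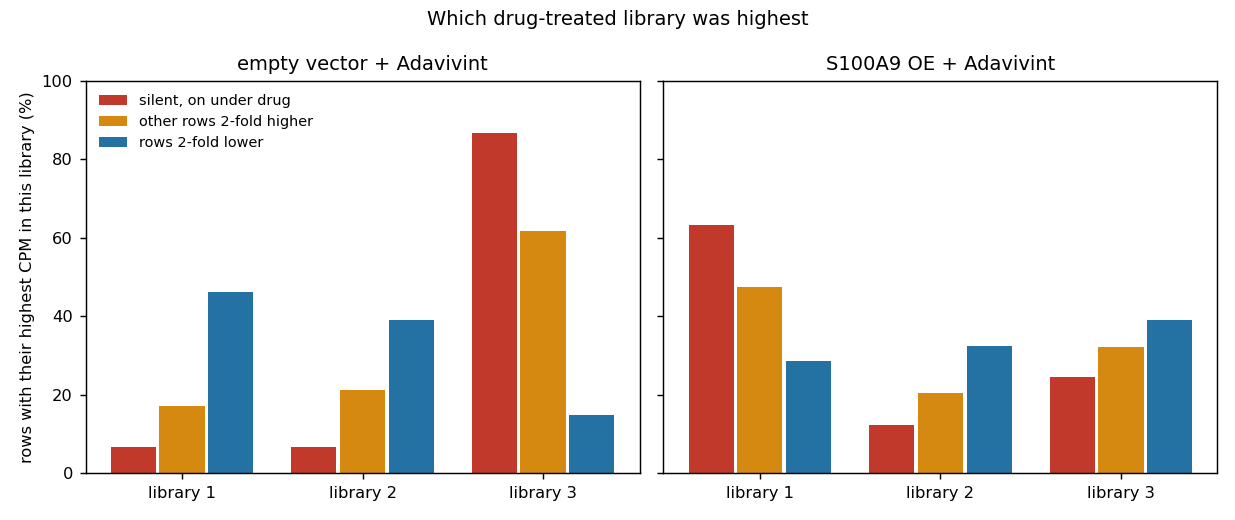
Share of genes with their highest CPM in each of the 3 drug-treated libraries, with the empty vector (left) and S100A9 (right), for the 90 genes, other genes at least 2-fold higher and genes at least 2-fold lower with the drug in overexpressing cells. Library 3 holds 86.7% of the 90 on the left and library 1 holds 63.3% on the right.

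The 90 genes were near silent in U937 cells, which were not given the drug. In all 6 U937 libraries 46 of them had 0 counts, and the median level was 0 CPM in both groups. Together they held 0.247, 1.01 and 11.9 CPM in shS100A9 cells, against 0.836, 0.567 and 1.19 CPM in U937 empty-vector cells. The shS100A9 library at 11.9 CPM is the one unlike its replicates, and nearly all of its 979 counts were those of ENSG00000287725, which had 0, 0 and 11.4 CPM in shS100A9 cells against 0.191, 0 and 0 CPM in empty-vector cells. More than 14 counts over the 6 libraries were also found for C10orf105 (0, 0 and 6 in shS100A9 against 9, 4 and 9 in empty-vector cells), LILRB5, an inhibitory leukocyte receptor (2, 6 and 3 against 0, 3 and 5), SLC22A14 (2, 3 and 8 against 0, 2 and 0) and ENSG00000289685 (0, 15 and 0 against 0). ENSG00000288000 had 14 counts, all in 1 empty-vector library.

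No knockdown effect on the 90 was found at these levels. None passed edgeR's filter on low counts in the U937 libraries. With no filter 44 were tested and 0 called, 2 of them with an unadjusted p below 0.05, and DESeq2 had none to test after the same filter. Over all genes edgeR called 30 of 13016 higher (0.23%) and 201 lower (1.54%) in shS100A9 cells. Groups did not overlap for SCML4, higher with 2, 2 and 2 counts in shS100A9 against 0 in empty-vector cells, and for TFCP2L1 and C10orf105, both lower. That is 1 gene higher and 2 lower of the 90, against 7.78% and 9.28% of all genes. A change in genes this low was not detectable at this depth. Of 3097 genes silent in U937 empty-vector cells, none reached 1 CPM in each shS100A9 library.

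The 90 genes belong to a wider gain of low signal. Of the 1880 genes silent in untreated empty-vector cells, 606 (32.2%) stayed at 0 in all 3 libraries with the drug, 799 had a mean under 0.1 CPM, 360 had 0.1 to 1 CPM, 25 had a mean of 1 CPM or more but not in each library, and 6 had at least 10 CPM in each. In untreated overexpressing cells 1282 of the same 1880 were at 0. Reversed, the rule gave 2 genes: KLHL4 had 0 counts with the drug against 76, 58 and 75 in untreated empty-vector cells, and FAM135B had 0 against 93, 83 and 71.

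The genes lay closer to active genes than other silent genes did, which is given as a description with no test. GENCODE 29 (GRCh38) gave a position for 84 of the 90, all protein-coding, with a median of 6 exons against 5 for other silent genes and 9 for all. The counting annotation is not given, so positions belong to GENCODE 29. The nearest gene upstream on the same strand lay at a median of 28.4 kb, against 89.5 kb for other silent genes and 58.0 kb for all genes. That neighbour had a median level of 37.6 CPM in untreated empty-vector cells, against 0.834 CPM for the neighbours of other silent genes and 11.1 CPM for those of all genes. It had 1 CPM or more, at any gap, for 60 of the 84 (71.4%), against 49.1% of other silent genes and 66.4% of all genes. It had 1 CPM or more and lay within 10 kb for 12 (14.3%), against 4.38% and 14.1%. At these limits the 84 were close to all genes. It had at least 10 CPM and lay within 50 kb for 30 of the 84 (35.7%), against 10.5% of other silent genes and 25.4% of all genes.

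The difference was smaller in the other directions. The nearest same-strand gene downstream had a median of 4.87 CPM, against 2.00 CPM for other silent genes and 11.5 CPM for all, and met both limits for 14 genes (16.7%), against 11.9% and 24.3%. The nearest gene upstream on the opposite strand had a median of 11.0 CPM, against 2.41 and 14.0 CPM, and met both limits for 10 (11.9%), against 10.1% and 21.1%. The 2 limits and the comparison of directions were chosen after the values were seen, so they carry no test. The unnamed identifiers differed from the named genes: all 6 with a position overlapped another gene on the same strand, against 7 of 78 named genes.

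**Figure D5:**
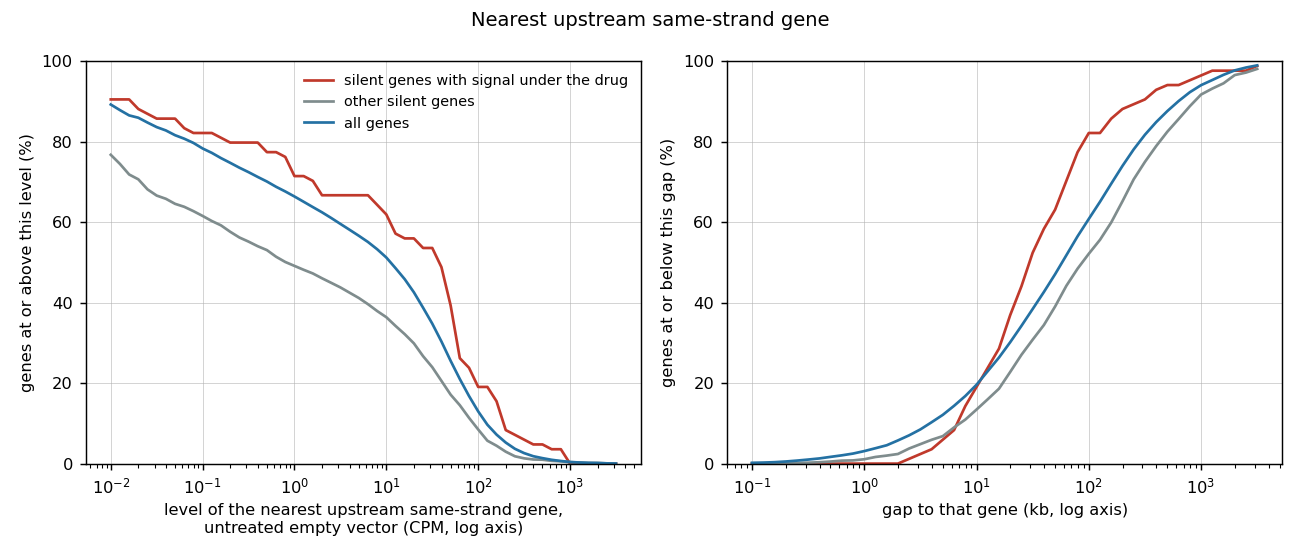
Share of genes whose nearest upstream same-strand gene had at least a given level in untreated empty-vector cells (left, CPM) or lay within a given gap (right, kb), log axes, for the 84 genes with a position, other silent genes and all genes. The curve of the 84 lies above that of other silent genes over most of both ranges.

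The pairs named here are examples, picked after their values were seen. An upstream gene at 1 CPM or more within 10 kb was about as frequent among all genes (14.1%) as among the 84 (14.3%). C17orf98 lies 6.41 kb downstream of RPL23, a ribosomal protein gene with 1105 CPM in empty-vector cells with the drug and 834 CPM without it. AMPD1, the muscle AMP deaminase, lies 8.85 kb downstream of NRAS (345 and 186 CPM), GLYATL3 6.85 kb downstream of CENPQ (44.5 and 32.0 CPM), and RCVRN 4.99 kb downstream of GAS7 (219 and 192 CPM). Several neighbours are relatives of the gene itself: IDI2, an isopentenyl diphosphate isomerase, lies 13.3 kb downstream of IDI1, ETV3L 21.4 kb downstream of ETV3, PRG3 5.64 kb downstream of PRG2 and GABRR1 25.9 kb downstream of GABRR2. Other genes of the 90 have no such neighbour. DRD1 lies 474 kb from its upstream gene and LGR5 1005 kb, and SLC36A2 lies 156.5 kb from FAT2, which had 4.86 CPM with the drug and 0.878 CPM without.

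Of the upstream neighbours themselves, 79 were tested in overexpressing cells, and edgeR called 55 higher with the drug (69.6%) and 20 lower (25.3%). Of the upstream neighbours of other silent genes 46.0% were higher and 40.5% lower, and of all genes tested 44.4% and 42.5%. The median log2 fold change was 0.64 for the neighbours of the 90, against 0.11 for those of other silent genes and 0.03 over all genes tested. This is a description with no test. GREM1's neighbour SCG5, a chaperone of neuroendocrine cells 20.9 kb upstream, had 45.4 CPM with the drug against 1.75 CPM without it in empty-vector cells. Its level and that of GREM1 were both far higher with the drug. Whether the reads of any of these genes began at their own promoter or upstream was not tested, and gene counts cannot tell it.

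Some of the genes lay together. CYP2C18 and CYP2C19 follow each other on the plus strand of chromosome 10, with a gap of 26.5 kb. RASL12, a Ras-like small GTPase, and KBTBD13 lie head to head on chromosome 15, 0.126 kb apart, and had 272, 381 and 468 and 270, 292 and 359 counts in empty-vector cells with the drug. IL23R and C1orf141 overlap on opposite strands of chromosome 1. IDI2, WDR38 and C10orf105 overlap GTPBP4, RPL35 and CDH23 on the opposite strand, each at 1 CPM or more in untreated empty-vector cells. The strand setting of the counting is not given, so reads of overlapping genes such as these cannot be assigned to either. HSD17B3 overlaps ENSG00000285269 on the same strand, where no strand setting could separate their reads, so their values are uncertain too.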

How the data were processed

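RNA of 18 libraries in 6 groups of 3 was sequenced. The authors deposited 1 table of raw counts per Ensembl gene, whole numbers with no normalization, with 18670 genes. HISAT2 2.0.4 is named in the submitters' processing notes. For the read counting, the tool, genome build, annotation and use of strand were not given in the sources used here. Columns were matched to libraries by the names their labels quote.

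CPM was computed from the column totals (38433169 to 84409062). Counting intervals (95%) and floors (3 counts over a group) cover counting error only. Entries of 2 (7587) outnumbered entries of 1 (3061), so counts were not independent draws. Symbols came from a name table for 18642 identifiers, positions from GENCODE 29 (GRCh38) and promoters from RefSeq GRCh38.p14.

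Tests used edgeR 4.0.16 (R 4.3.3), quasi-likelihood, TMM, filterByExpr and Benjamini-Hochberg adjustment at 0.05, on the 6 libraries of each comparison. DESeq2 1.42.0, other scalings and filters, a replicate block, and each library left out were alternatives. Scripts were tested on simulated data. Genes named are the 20 with the highest minimum CPM under the drug, those next to the threshold, the extremes of the drug effect in overexpressing cells, those with most counts in untreated overexpressing or U937 cells, and those of lists with at least 3. Other genes were named by role, after their values were seen. The genes and lists were chosen with earlier results of these data known. Some genes are not reported here.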

Additional observations from a re-analysis of the deposited data

How the results depend on the processing

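The number of genes meeting the rule was 153 at a minimum of 0.5 CPM, 56 at 2 CPM and 148 with up to 3 counts over the untreated libraries allowed, against 90 as reported; leaving out 1 library at a time gave 91 to 124. The number shared with the overexpressing libraries was 65 with up to 3 untreated counts allowed, against 43, and 43 to 54 with 1 library left out. The number called in overexpressing cells was 85 to 89 over 13 other fits. With no filter, and in a fit of all 12 THP-1 libraries, 1 of them (ENSG00000288683) was called lower with the drug. Of 1142 values of single genes recomputed, 1140 stayed on their side of the threshold in the same direction and 0 reversed. ENSG00000289685 missed the threshold in DESeq2 (adjusted p = 0.111), and ENSG00000286235 passed it without untreated overexpressing library 2; the cause was not tested. In U937 cells edgeR called 231 of all genes, against 879 by DESeq2, 3 with the replicate block, 4296 without empty vector 2 and shS100A9 3, and 18 to 362 with 1 library left out (362 without empty vector 2). None of the 90 was called there in any fit. Same-numbered libraries did not deviate together (correlations 0.061, -0.051 and 0.007 in overexpressing cells, 0.092, -0.345 and -0.287 in U937 cells), and not every library correlated best with its own number. The numbers were therefore not used as pairs in the main fits. Such correlations cannot exclude that same-numbered libraries were prepared together, which the labels do not say. The replicate block left the count of the 90 called in overexpressing cells at 87. Limits are those of the counts: below about 0.02 CPM over a group a gene could not be told from 0, and the untreated empty-vector values are at that floor by choice.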
